A study of Mus musculus with 32 samples.

Results

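Whole-tissue RNA of primary motor cortex (M1) was compared between 2 bacTRAP mouse lines, Colgalt2-bacTRAP and Gprin3-bacTRAP, to find the genes whose level in unfractionated cortex differed between the lines, including genes next to the driver genes. The 5 libraries were the baseline inputs named so in the sample titles, 2 of the Colgalt2 line and 3 of the Gprin3 line, out of 32 libraries in the series. In translating ribosome affinity purification (TRAP), ribosomes that carry EGFP-tagged ribosomal protein L10a are pulled out of a tissue homogenate to give the immunoprecipitate (IP), and RNA of the homogenate taken before that step is the input. The tables held reads counted per gene, with 15083372 to 25602675 counts in each of the 5 inputs.

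The Gprin3-line inputs came from strain Gprin3-bacTRAP ES152 and the Colgalt2-line inputs from Colgalt2-bacTRAP DU9. Both were labelled wildtype, M1 cortex and mixed cell type, and the mice were adults of 8 to 17 weeks. All of them carried an EGFP-L10a transgene, which per the labels was made in lower layer 5b pyramidal cells in the Gprin3 line and in upper layer 5b pyramidal cells in the Colgalt2 line. Values from 14 other libraries were set beside the inputs. They were 2 baseline IPs of each line, 2 Gprin3-line and 3 Colgalt2-line IPs of wild-type (SOD-) littermates from crosses to SOD1*G93A mice, and 5 M1 inputs of SOD- littermates of the Gprin3 cross. The Colgalt2-line littermate IPs were labelled whole cortex in their region field and M1 in their source name, and the littermate inputs carried the cell type label of the Gprin3 driver although they were whole tissue. Each line was 1 strain, and no cortex without the transgene was among these groups, so an effect of the driver, of the transgene and of the strain background cannot be told apart. The labels do not say whether replicates were separate animals or whether animals were pooled, so the p-values measure the spread between libraries.

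A bacTRAP transgene sits on a bacterial artificial chromosome (BAC), a long stretch of genomic DNA around a driver gene in which the tagged ribosomal protein is placed under the driver's regulatory sequence. Such a stretch can also hold neighbouring genes, and copies of it add to the copies at the native locus. Motor cortex of rodents lacks a thick layer 4 and has large layer 5b neurons that project to the spinal cord and brainstem. Whole-tissue RNA holds all cortical cell types, and in such RNA fewer cells of a type and less RNA per cell cannot be told apart.

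The whole-tissue transcriptomes of the lines differed at few genes. Tsen15 and Colgalt2, divergent neighbours on chromosome 1, were 9.12-fold and 12.9-fold higher in the Colgalt2 line, and Rpl30 was 2.29-fold higher. Map3k4, Tmem181b-ps, Mir6236 and Lars2 were lower in the Colgalt2 line by factors of 2.07, 2.02, 1.89 and 1.81. These 7 of 14916 genes tested (0.0469%) had an adjusted p under 0.05 in the quasi-likelihood test of edgeR, adjusted over all genes tested by the Benjamini-Hochberg method, 3 of them higher (0.0201%) and 4 lower (0.0268%). An unadjusted p under 0.05 was found for 437 genes (2.93%), and DESeq2 called 9 genes. The 2 groups did not overlap in CPM (counts scaled to a library total of 1000000) at 2480 genes (16.6%), so separation of the 5 libraries was common among genes that did not pass the test.

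**Figure D1:**
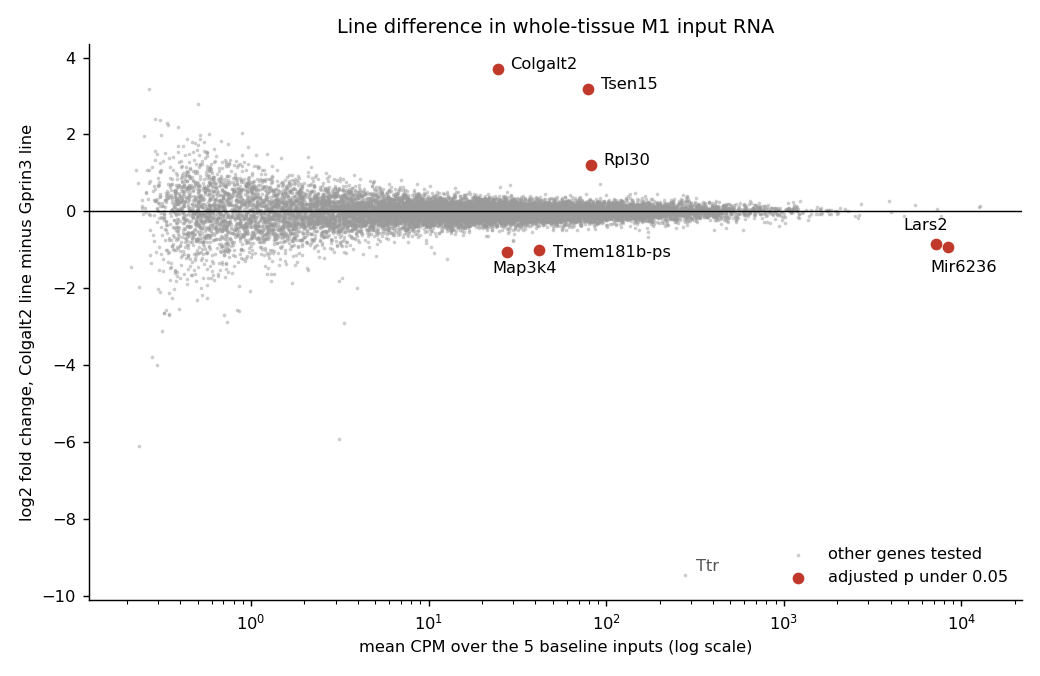
Log2 fold change (Colgalt2 line minus Gprin3 line) of the 14916 genes tested against their mean CPM over the 5 baseline inputs, on a log axis. Red points are the 7 genes with an adjusted p under 0.05; Colgalt2 and Tsen15 lie above 3, and the grey point at -9.46 is Ttr, whose level came from 1 library.

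Tsen15 (gene ID 66637) encodes a subunit of the tRNA splicing endonuclease, the enzyme that cuts introns out of precursor tRNAs. It lies on chromosome 1 from 152370735 to 152386682 in mouse build mm10 (GRCm38.p6, RefSeq), on the minus strand, and its start faces away from that of Colgalt2 across 13.1 kb. Colgalt2 (gene ID 269132, chromosome 1, 152399805 to 152510695) encodes a procollagen galactosyltransferase that adds galactose to hydroxylysine in collagen, and it is the driver gene of the Colgalt2 line. The 250 bases upstream of the annotated Tsen15 start are printed because they face the driver gene, with a GC box (GGGCGG) in capitals.
Tsen15 upstream, chr1:152386683-152386932, minus strand, GRCm38.p6 (RefSeq), 5′ to 3′: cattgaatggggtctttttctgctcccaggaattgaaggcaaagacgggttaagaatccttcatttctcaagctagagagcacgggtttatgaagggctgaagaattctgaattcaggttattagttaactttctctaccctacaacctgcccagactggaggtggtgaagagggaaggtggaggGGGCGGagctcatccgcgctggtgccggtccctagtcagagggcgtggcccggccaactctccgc
The window held 1 GC box (GGGCGG, searched on both strands), a motif found in 32.9% of 27025 promoter windows of 250 bases. CCAAT was not found on either strand, and 34.5% of the windows held it. The same was so of TATAAA (held by 13% of windows) and of the cyclic AMP response motif TGACG (held by 17.9%). CG dinucleotides numbered 9, against a median of 6 over the windows.

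The level of Tsen15 was 17.3, 17.4 and 20.8 CPM in the 3 Gprin3-line inputs and 167 and 174 CPM in the 2 Colgalt2-line inputs. The lowest Colgalt2-line library was thus far above the highest Gprin3-line library, and the replicates of each line lay close together. The log2 fold change was 3.19 ± 0.14 (SE; 95% interval 2.89 to 3.48; adjusted p = 1.42e-16, edgeR). Colgalt2 was at 3.67, 3.97 and 4.96 CPM in Gprin3-line inputs and at 57 and 52.8 CPM in Colgalt2-line inputs. Its log2 fold change was 3.69 ± 0.19 (interval 3.31 to 4.08; adjusted p = 2.23e-15, edgeR). The driver gene thus separated the inputs as their line labels did. The intervals of both log2 fold changes overlapped. The extent of the BAC, its copy number and its insertion site are not given in the sources used here, so whether Tsen15 lies on the transgene was not tested.

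The same difference was present in ribosome-bound RNA. In baseline IPs Tsen15 was at 16.2 and 20.1 CPM in the Gprin3 line and at 160 and 169 CPM in the Colgalt2 line, and Colgalt2 was at 5.19 and 5.43 CPM against 79.4 and 97.1 CPM. In littermate IPs Tsen15 was at 14.9 and 11.9 CPM in the Gprin3 line and at 102, 82.5 and 130 CPM in the Colgalt2 line. Each library of the Colgalt2 line was above each library of the Gprin3 line in both kinds of RNA. The log2 fold change of Tsen15 was 3.19 ± 0.29 in baseline IPs (adjusted p = 1.15e-04) and 2.99 ± 0.28 in littermate IPs (adjusted p = 2.12e-04, edgeR). The share of all genes called was 6.67% in baseline IPs (907 of 13604) and 13% in littermate IPs (1926 of 14813), where line and labelled region differed together. For Colgalt2 the values were 4.06 ± 0.34 and 3.89 ± 0.24 (adjusted p = 6.67e-05 and 1.9e-05, edgeR).

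Whether the line difference was larger in IPs than in inputs was tested as an interaction over the 9 baseline libraries, a test added after the input values had been seen. This test took IPs and inputs as independent libraries and called 1307 of 15045 genes (8.69%). For Tsen15 the IP difference minus the input difference was -0.04 on the log2 scale (95% interval -0.59 to 0.52; adjusted p = 0.949, edgeR). For Colgalt2 it was 0.34 (interval -0.37 to 1.04; adjusted p = 0.567, edgeR). Neither value passed the test. The inputs of SOD- littermates gave a further set of Gprin3-line tissue. There Tsen15 ran from 17.8 to 20.6 CPM and Colgalt2 from 2.58 to 5.76 CPM over the 5 libraries, all below both Colgalt2-line inputs. Against them the log2 fold change was 3.09 ± 0.10 for Tsen15 (adjusted p = 7.44e-15) and 3.66 ± 0.19 for Colgalt2 (adjusted p = 9.99e-11, edgeR), in a comparison that called 756 of 14968 genes (5.05%). This comparison used the same 2 Colgalt2-line inputs as the main one. Tsen15 and Colgalt2 were the 2 genes called in 1 direction in the input, the baseline IP and the littermate input comparisons.

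**Figure D2:**
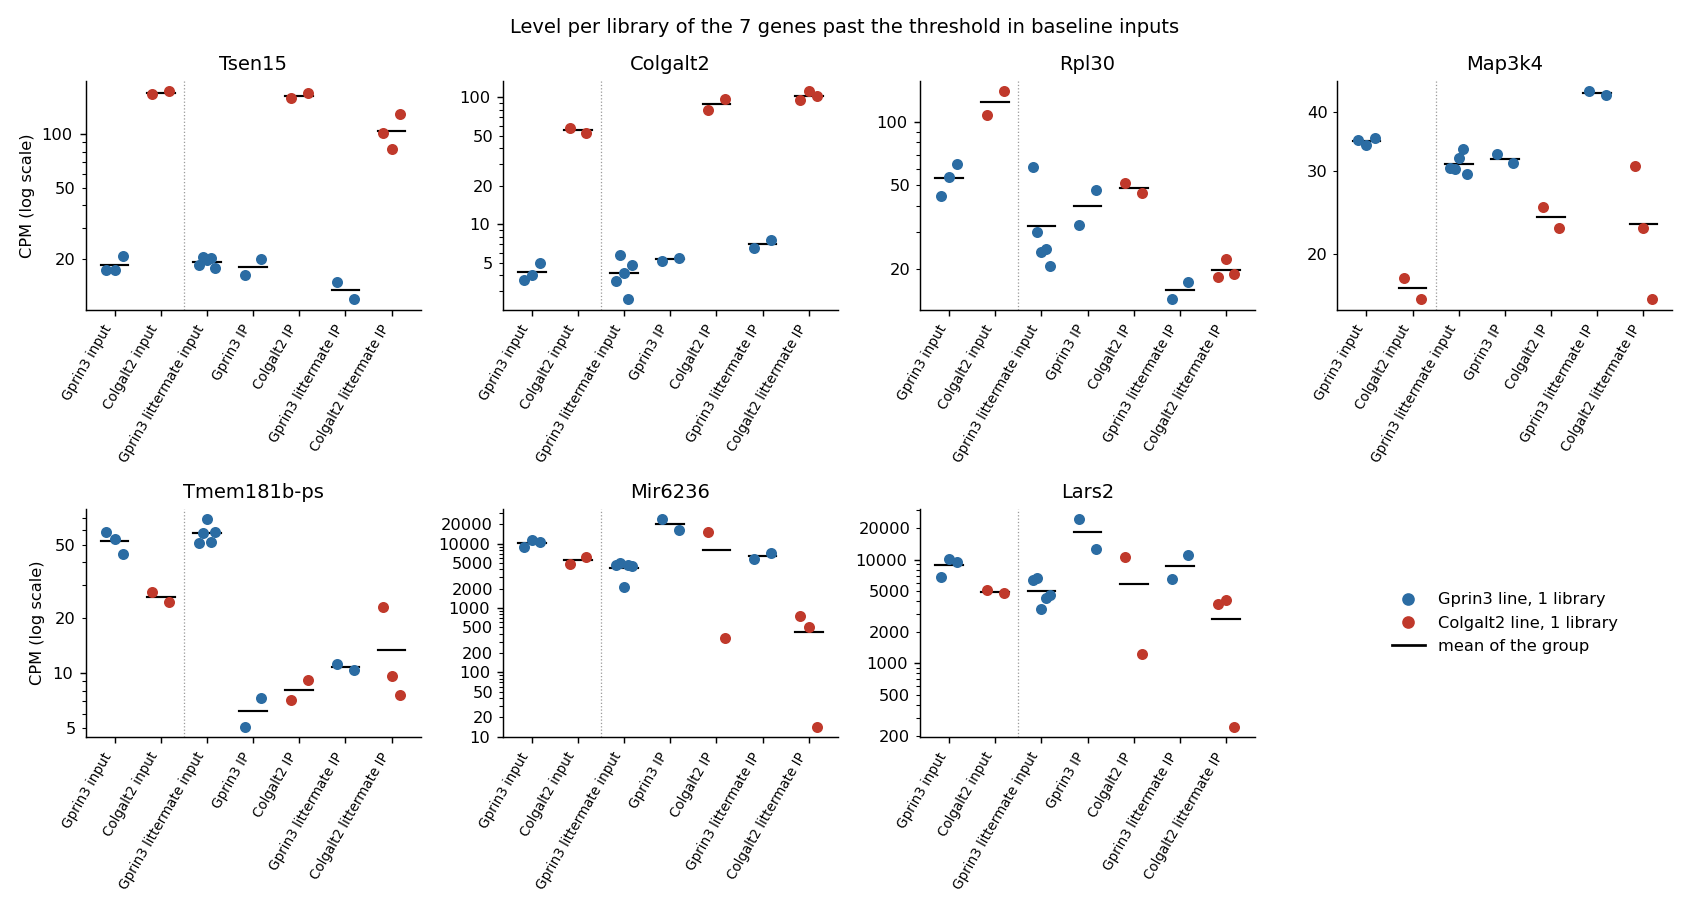
CPM on a log axis in each library of 7 groups for the 7 genes with an adjusted p under 0.05 in baseline inputs; points are libraries, black lines are group means, and groups left of the dotted line are the inputs compared. Tsen15 and Colgalt2 are higher in every Colgalt2-line library of either RNA type, whereas the lines overlap in baseline IPs at Rpl30, and at Mir6236 and Lars2 the littermate inputs of the Gprin3 line overlap the Colgalt2-line inputs.

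Genes on the other side of Colgalt2 did not follow it in whole tissue. Rgl1, which encodes a guanine nucleotide exchange factor of the Ral GTPases, lies 6.07 kb from Colgalt2. It was at 128, 113 and 125 CPM in Gprin3-line inputs and at 117 and 144 CPM in Colgalt2-line inputs. The groups overlapped, and the log2 fold change was 0.08 ± 0.14 (interval -0.20 to 0.36; adjusted p = 0.999, edgeR). In baseline IPs Rgl1 was at 132 and 102 CPM in the Gprin3 line and at 176 and 190 CPM in the Colgalt2 line, without passing the test (0.64 ± 0.27; adjusted p = 0.168, edgeR). In littermate IPs, where line and labelled region differed together, it passed, at 151 and 149 CPM in the Gprin3 line and at 298, 388 and 487 CPM in the Colgalt2 line (log2 fold change 1.41 ± 0.25; adjusted p = 0.00501, edgeR). Of 9 annotated genes within 500 kb of Colgalt2, 8 passed the filter on low counts. Of these 2 were called, Colgalt2 and Tsen15, beside 0.0469% of all genes tested. The one left out was Apobec4, at 0 to 0.352 CPM, which lies inside the body of Rgl1. Among those tested and not called, 1700025G04Rik, Rgl1, Arpc5 (a subunit of the Arp2/3 actin nucleator) and Nmnat2 (an axonal NAD-synthesizing enzyme) had log2 fold changes from -0.06 to 0.09. Within 1000 kb, 18 of 21 genes were tested and the same 2 were called, and the median log2 fold change of the 18 was -0.02 beside -0.01 over all genes tested.

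No such excess was seen at the driver of the other line. Gprin3 (gene ID 243385, chromosome 6, 59344500 to 59426306) encodes a protein of the G protein-regulated inducer of neurite outgrowth family. It was at 12.1, 11.6 and 15 CPM in Gprin3-line inputs and at 15.2 CPM in both Colgalt2-line inputs. The Gprin3-line inputs were thus not higher at their own driver gene, and the log2 fold change was 0.23 ± 0.20 (interval -0.19 to 0.64; adjusted p = 0.999, edgeR). Within 500 kb of Gprin3 lie Herc3, Nap1l5, Fam13a, Tigd2 and Gprin3 itself. All 5 were tested and 0 were called by edgeR's quasi-likelihood test or DESeq2, with 0 at an unadjusted p under 0.05. Over all genes tested the edgeR shares were 0.0469% and 2.93%, so 0 of 5 does not set this locus apart from other genes. Their log2 fold changes ran from -0.13 to 0.23.

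In baseline IPs the picture at this locus was different. Gprin3 was at 49.7 and 38.9 CPM in the Gprin3 line and at 17.5 and 16.5 CPM in the Colgalt2 line (log2 fold change -1.39 ± 0.33; adjusted p = 0.0244, edgeR). The line difference of Gprin3 in IPs minus that in inputs was -1.65 on the log2 scale (interval -2.37 to -0.93; adjusted p = 0.0104, edgeR). Nap1l5, an imprinted gene within the body of Herc3 that encodes a nucleosome assembly protein-like factor, also differed in baseline IPs (log2 fold change -1.47 ± 0.26; adjusted p = 0.00564, edgeR). It was at 444, 430 and 336 CPM in Gprin3-line inputs and at 401 and 419 CPM in Colgalt2-line inputs. In IPs it was at 561 and 601 CPM in the Gprin3 line and at 188 and 229 CPM in the Colgalt2 line. The line difference in IPs minus that in inputs was -1.52 for Nap1l5 (adjusted p = 0.00448, edgeR). In littermate IPs neither gene passed the test. Gprin3 was at 37.2 and 23.7 CPM in the Gprin3 line and at 23.7, 28.4 and 37.1 CPM in the Colgalt2 line, so that the lines overlapped (log2 fold change -0.01 ± 0.30; adjusted p = 0.988, edgeR). Nap1l5 was at 445 and 384 CPM against 194, 221 and 306 CPM without overlap (-0.76 ± 0.23; adjusted p = 0.0514, edgeR). Tigd2, the nearest annotated neighbour of Gprin3, did pass in littermate IPs (-1.37 ± 0.28; adjusted p = 0.0108, edgeR). In baseline IPs Tigd2 did not pass (-0.97 ± 0.34; adjusted p = 0.0996, edgeR). Herc3 and Fam13a passed in neither set of IPs.

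**Figure D3:**
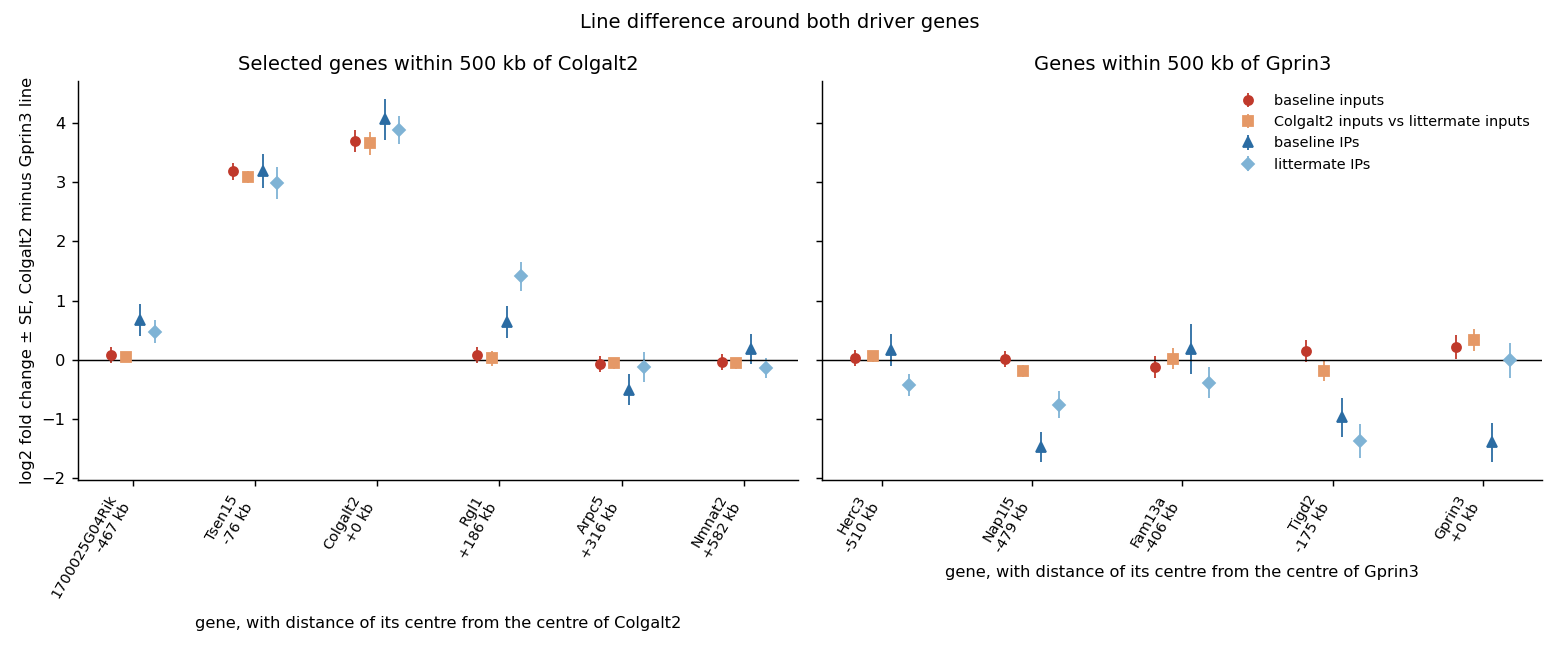
Log2 fold change ± SE (Colgalt2 line minus Gprin3 line) of selected tested genes within 500 kb of Colgalt2 (left) and of all those within 500 kb of Gprin3 (right), ordered by position and labelled with the distance of their centres from the centre of the driver, in 4 comparisons. Tsen15 and Colgalt2 stand near 3 and above in all 4 comparisons, and the 4 other neighbours of Colgalt2 plotted lie between -0.06 and 0.09 in baseline inputs.

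Related genes were compared with the driver and its neighbour. Of tRNA splicing endonuclease genes, drawn up as a list after the value of Tsen15 had been seen, Tsen15 rose, and Tsen34, Tsen54 and Clp1 had log2 fold changes from -0.03 to 0.19 and were not called. Of 10 genes of collagen hydroxylysine modification and type IV collagen, 1 rose (Colgalt2), and the other 9 had log2 fold changes from -0.46 to -0.05. Colgalt1, the paralog of Colgalt2, was at 26.9, 31.5 and 23.8 CPM in Gprin3-line inputs and at 27.9 and 18.8 CPM in Colgalt2-line inputs, and the groups overlapped (log2 fold change -0.23 ± 0.19; adjusted p = 0.999, edgeR). Rpl10a, the endogenous gene of the protein that carries the tag, was at 20.4, 26.3 and 23.8 CPM against 19.8 and 34.2 CPM. Its log2 fold change was 0.18 ± 0.20 (adjusted p = 0.999, edgeR). Reads of the tagged transgene copy could enter this count through the sequence it shares with Rpl10a.

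Rpl30 (gene ID 19946, chromosome 15, 34440505 to 34443276) encodes a protein of the large ribosomal subunit. It was at 44.3, 54.4 and 62.9 CPM in Gprin3-line inputs and at 108 and 140 CPM in Colgalt2-line inputs, without overlap. The log2 fold change was 1.19 ± 0.15 (adjusted p = 6.98e-05, edgeR). In baseline IPs the lines overlapped, with 32.2 and 47.6 CPM against 51.5 and 45.9 CPM. In littermate inputs Rpl30 ran from 20.7 to 60.9 CPM with a median of 24.8 CPM, and the log2 fold change of the Colgalt2-line inputs over them did not pass the test (1.89 ± 0.46; adjusted p = 0.0932, edgeR). Of 82 tested genes of cytoplasmic ribosomal proteins 1 was called, Rpl30, beside 0.0469% of all genes tested, and 7 of the 82 (8.54%) had an unadjusted p under 0.05 beside 2.93% of all genes. The median log2 fold change of the 82 was 0.16, and -0.01 over all genes tested. Summed over the 85 such genes counted, the level was 6091, 8313 and 7108 CPM in Gprin3-line inputs. In Colgalt2-line inputs the sums were 6808 and 8962 CPM, so that the groups overlapped.

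Rpl15, which encodes another protein of the large subunit, went the other way without passing the threshold in baseline inputs. It was at 224, 209 and 172 CPM in Gprin3-line and at 134 and 123 CPM in Colgalt2-line inputs (log2 fold change -0.66 ± 0.14; adjusted p = 0.105, edgeR). In baseline IPs it was at 265 and 256 CPM against 120 and 56.3 CPM, a log2 fold change of -1.59 ± 0.31 that passed the test (adjusted p = 0.00957, edgeR). It was lower in the Colgalt2 line in littermate IPs as well (-1.86 ± 0.20; adjusted p = 5.1e-04, edgeR). Ribosomal protein genes have processed pseudogenes with near-identical sequence, and how the authors' counting divided such reads is not given in the sources used here, so levels of Rpl30 and Rpl15 are uncertain.

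Of the 4 genes that fell, 2 lie on proximal chromosome 17. Map3k4 (gene ID 26407, chromosome 17, 12227621 to 12318796) encodes a kinase upstream of the p38 and JNK pathways. It was at 34.9, 34.1 and 35.4 CPM in Gprin3-line inputs and at 17.7 and 16 CPM in Colgalt2-line inputs. The replicates differed little within a line and the groups were well apart, with a log2 fold change of -1.05 ± 0.17 (interval -1.40 to -0.70; adjusted p = 0.0023, edgeR). The 5 littermate inputs, at 29.6 to 33.4 CPM, lay with the Gprin3-line inputs, and against them the difference was -0.93 ± 0.15 (adjusted p = 6.86e-04, edgeR). In littermate IPs Map3k4 was at 44.3 and 43.6 CPM in the Gprin3 line and at 30.8, 22.8 and 16 CPM in the Colgalt2 line (-0.92 ± 0.26; adjusted p = 0.0405, edgeR). In baseline IPs it was at 32.6 and 31.2 CPM against 25.1 and 22.8 CPM, which did not pass the test (-0.42 ± 0.32; adjusted p = 0.481, edgeR). In each of these 4 comparisons the Gprin3-line libraries were above the Colgalt2-line libraries. The call in baseline inputs was lost when either Colgalt2-line input was left out, with an adjusted p of 0.0581 without replicate 1 and 0.161 without replicate 2.

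Tmem181b-ps (gene ID 547127, chromosome 17, 6439002 to 6450994) is annotated as a pseudogene of the transmembrane protein gene Tmem181a and lies 5.78 Mb from Map3k4. It was at 58.5, 53.6 and 44.5 CPM in Gprin3-line inputs and at 27.7 and 24.5 CPM in Colgalt2-line inputs, a log2 fold change of -1.01 ± 0.17 (adjusted p = 0.0023, edgeR). The littermate inputs ran from 51.1 to 68.8 CPM, all above both Colgalt2-line inputs (-1.19 ± 0.14; adjusted p = 1.87e-05, edgeR). The call in baseline inputs was lost without Gprin3-line input 1 (adjusted p = 0.0543) and without Colgalt2-line input 2 (0.161). In baseline IPs it was at 5.08 and 7.33 CPM in the Gprin3 line and at 7.09 and 9.11 CPM in the Colgalt2 line, below the inputs of either line, with a line difference of 0.40 ± 0.53 (adjusted p = 0.71, edgeR). The line difference of Tmem181b-ps in IPs minus that in inputs was 1.39 on the log2 scale (interval 0.61 to 2.17; adjusted p = 0.0319, edgeR). Reads of Tmem181 copies may be shared between them, and Tmem181a itself was at 20.8, 28.5 and 21.9 CPM against 23.4 and 20 CPM (log2 fold change -0.14 ± 0.18; adjusted p = 0.999, edgeR). The other annotated copy, Tmem181c-ps, was at 12.5, 14.6 and 7.44 CPM against 7.42 and 6.36 CPM. Its log2 fold change of -0.74 ± 0.26 had an unadjusted p of 0.00773 and did not pass the test (adjusted p = 0.999, edgeR), while against the littermate inputs it did (-0.84 ± 0.21; adjusted p = 0.0234, edgeR). Agpat4, an acyltransferase gene of phosphatidic acid synthesis 7.97 kb from Map3k4, was at 37, 41.9 and 28 CPM in Gprin3-line and at 22.9 and 19.4 CPM in Colgalt2-line inputs. This difference did not pass the test in baseline inputs (-0.76 ± 0.18; adjusted p = 0.346, edgeR) and passed it against the littermate inputs (-0.62 ± 0.17; adjusted p = 0.0333, edgeR). Of 706 genes tested on chromosome 17, 2 were called, Map3k4 and Tmem181b-ps, and 3.97% had an unadjusted p under 0.05. That share was the highest among the autosomes by a small margin, with chromosome 19 at 3.96% and chromosome 11 at 3.91%. The lowest autosome was at 2.03%, and chromosome X was at 4.03%. Over all genes tested, 0.0469% were called.

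The other 2 genes that fell were the most abundant ones called, and both lie on chromosome 9. Mir6236 (gene ID 102465959, 110281287 to 110281409) is a feature of 123 bases annotated as a microRNA gene. The mature sequence from RefSeq is printed, with its seed (bases 2 to 8) in capitals, because it lies within the annotated feature over which reads were counted.
mmu-miR-6236, chr9:110281353-110281371, plus strand, GRCm38.p6: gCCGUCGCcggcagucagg
These libraries were made from amplified cDNA, so the counts are reads over the annotated gene and do not measure the mature microRNA. The mature sequence was found in 1 gene, Mir6236, among 141767 annotated transcripts. The rest of the 123 bases was not searched for, and sequence outside these transcripts was not searched. Whether reads from other sequence entered the counts of Mir6236, or of Lars2 below, was not tested, so their levels are uncertain. Mir6236 was at 8967, 11437 and 10774 CPM in Gprin3-line inputs and at 4780 and 6308 CPM in Colgalt2-line inputs. The log2 fold change was -0.92 ± 0.13 (interval -1.19 to -0.64; adjusted p = 7.92e-04, edgeR). The littermate inputs, which are of the Gprin3 line, ran from 2144 to 5071 CPM. They thus overlapped the Colgalt2-line inputs and lay below all 3 baseline Gprin3-line inputs. The call of Mir6236 was lost without Colgalt2-line input 1 (adjusted p = 0.103, edgeR).

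Lars2 (gene ID 102436, chromosome 9, 123366927 to 123462675), the gene of mitochondrial leucyl-tRNA synthetase, showed a similar pattern. It was at 6812, 10165 and 9411 CPM in Gprin3-line inputs and at 5045 and 4725 CPM in Colgalt2-line inputs (log2 fold change -0.86 ± 0.14; adjusted p = 0.00389, edgeR). Littermate inputs ran from 3317 to 6667 CPM and overlapped the Colgalt2-line inputs (-0.09 ± 0.31; adjusted p = 0.91, edgeR). Among baseline IPs both features varied widely within a line. Mir6236 was at 15487 and 336 CPM and Lars2 at 10516 and 1232 CPM in the 2 Colgalt2-line IPs. All of these values were below those of the Gprin3-line IPs, and neither difference passed the test (-1.44 ± 2.01 for Mir6236, adjusted p = 0.763, and -1.74 ± 0.85 for Lars2, adjusted p = 0.282, edgeR). The library lowest in both features among the 19 libraries was the third Colgalt2-line littermate IP, with 14.1 CPM of Mir6236 and 244 CPM of Lars2, and the highest in both was the first baseline Gprin3-line IP, with 24245 and 24565 CPM. The call of Lars2 was lost without Gprin3-line input 3 (adjusted p = 0.124) and without either Colgalt2-line input (0.0575 and 0.11).

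Besides Rpl15 and Agpat4, the naming rule took 10 further genes by their unadjusted p that did not pass the test, with adjusted p from 0.129 to 0.999 by edgeR. Erdr1, a gene at the pseudoautosomal end of chromosome X, was at 10.5, 22.3 and 16.7 CPM in Gprin3-line inputs and at 7.38 and 6.7 CPM in Colgalt2-line inputs (log2 fold change -1.23 ± 0.26; adjusted p = 0.129, edgeR), and at 2.64 to 4.65 CPM in littermate inputs. Ide, the gene of insulin-degrading enzyme, was at 64.6, 96.2 and 59.5 CPM against 136 and 106 CPM (0.71 ± 0.17; adjusted p = 0.688, edgeR). The groups did not overlap at either gene. A2ml1, Zfp781, Ngfr, Gtdc1 and Mlip were higher in both Colgalt2-line libraries and Ptpn14, Fgf23 and D17H6S56E-5 lower, and none of these 8 passed the test in any comparison of inputs.

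Marker genes of cell types and neighbouring brain regions were not called, as was so of nearly all genes tested. The lists covered layers of excitatory neurons, interneurons, glia, vessels, blood and neighbouring brain regions, 17 lists with 169 tested members. Of these members 0 were called by edgeR's quasi-likelihood test or by DESeq2, beside 0.0469% of all genes by edgeR. At so low a share, 0 of 169 does not set the markers apart from other genes. An unadjusted p under 0.05 was found for 7 members (4.14%) beside 2.93% of all genes. A 95% interval within 2-fold in either direction was found for 115 members. Their median log2 fold change was -0.01, as over all genes tested.

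Markers of layer 5b projection neurons, the cells in which the drivers are active, had a median log2 fold change of 0.04 over 14 members. Their summed level was 793, 795 and 801 CPM in the Gprin3-line and 807 and 820 CPM in the Colgalt2-line inputs. Fezf2, a transcription factor gene required for corticospinal neuron identity, was at 36.5, 52.5 and 39.6 CPM against 45.4 and 46.3 CPM (log2 fold change 0.09 ± 0.16; adjusted p = 0.999, edgeR). Slc17a7, the vesicular glutamate transporter of cortical excitatory neurons, was at 402, 566 and 502 CPM against 466 and 444 CPM, with overlap (-0.12 ± 0.14). Both markers of excitatory cortex were thus present in each of the 5 libraries. Bcl11b, a further transcription factor gene of these neurons, was at 99.2, 92.7 and 86 CPM against 83.3 and 74.3 CPM, which did not pass the test (-0.24 ± 0.14; adjusted p = 0.999, edgeR). Medians were 0.07 over 4 markers of layer 5 intratelencephalic neurons, 0.03 over 9 of layers 2 to 4, 0.11 over 10 of layer 6 and 0.03 over 20 of interneurons. Gad1, an enzyme of GABA synthesis, was at 157, 102 and 128 CPM against 138 CPM in both Colgalt2-line inputs.

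Among glia and vessels the medians were -0.05 over 14 astrocyte, 0.01 over 14 oligodendrocyte, -0.09 over 9 precursor, 0.14 over 15 microglial and 0.13 over 13 endothelial genes. Mbp, a myelin protein gene, was at 213, 233 and 232 CPM against 262 and 196 CPM, and Gfap, an astrocyte filament gene, at 12.7, 21.9 and 14.2 CPM against 15.3 and 16.1 CPM. Cx3cr1, a microglial chemokine receptor gene, was the one of these 3 genes at which the groups did not overlap, with 3.44, 5.07 and 5.63 CPM against 5.68 and 7.62 CPM, and it did not pass the test (0.48 ± 0.29; adjusted p = 0.999, edgeR). Blood genes, 3 in number, summed to 21.5 to 72.5 CPM, with the lowest and the second highest library both in the Colgalt2 line. Striatal genes summed to 253, 287 and 258 CPM against 259 and 243 CPM. Medians of the remaining regional lists were -0.18 over 14 mural and meningeal, -0.01 over 11 striatal, -0.21 over 5 hippocampal, -0.33 over 4 thalamic and 0.01 over 5 claustral genes.

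No member of the lists of cell state passed the test. Of 18 immediate early, 13 glucocorticoid response, 17 clock, 9 heat shock, 15 interferon and 11 antigen processing genes tested, 0 were called by either tool, and 1, 2, 0, 1, 0 and 1 of them had an unadjusted p under 0.05. Together these were 5 of 83 genes (6.02%), beside 2.93% of all genes tested, of which edgeR called 0.0469%. Medians ran from -0.24 for antigen processing to 0.19 for interferon genes. In 78 nuclear genes of oxidative phosphorylation the median was 0.11 and 75 intervals lay within 2-fold. Nuclear noncoding RNAs, 8 genes with Malat1 among them, summed to 16172, 13018 and 10723 CPM against 9103 and 19662 CPM, so that the 2 Colgalt2-line inputs held the lowest and the highest value. Of the genes Gabra2, Nnt, Alad and Glo1, known to vary between inbred strains, none was called by either tool, and their log2 fold changes ran from -0.01 to 0.07. Nnt, the mitochondrial transhydrogenase gene of which C57BL/6J mice carry a deletion, was at 14.1, 15.1 and 13 CPM against 14.8 and 13.4 CPM.

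**Figure D4:**
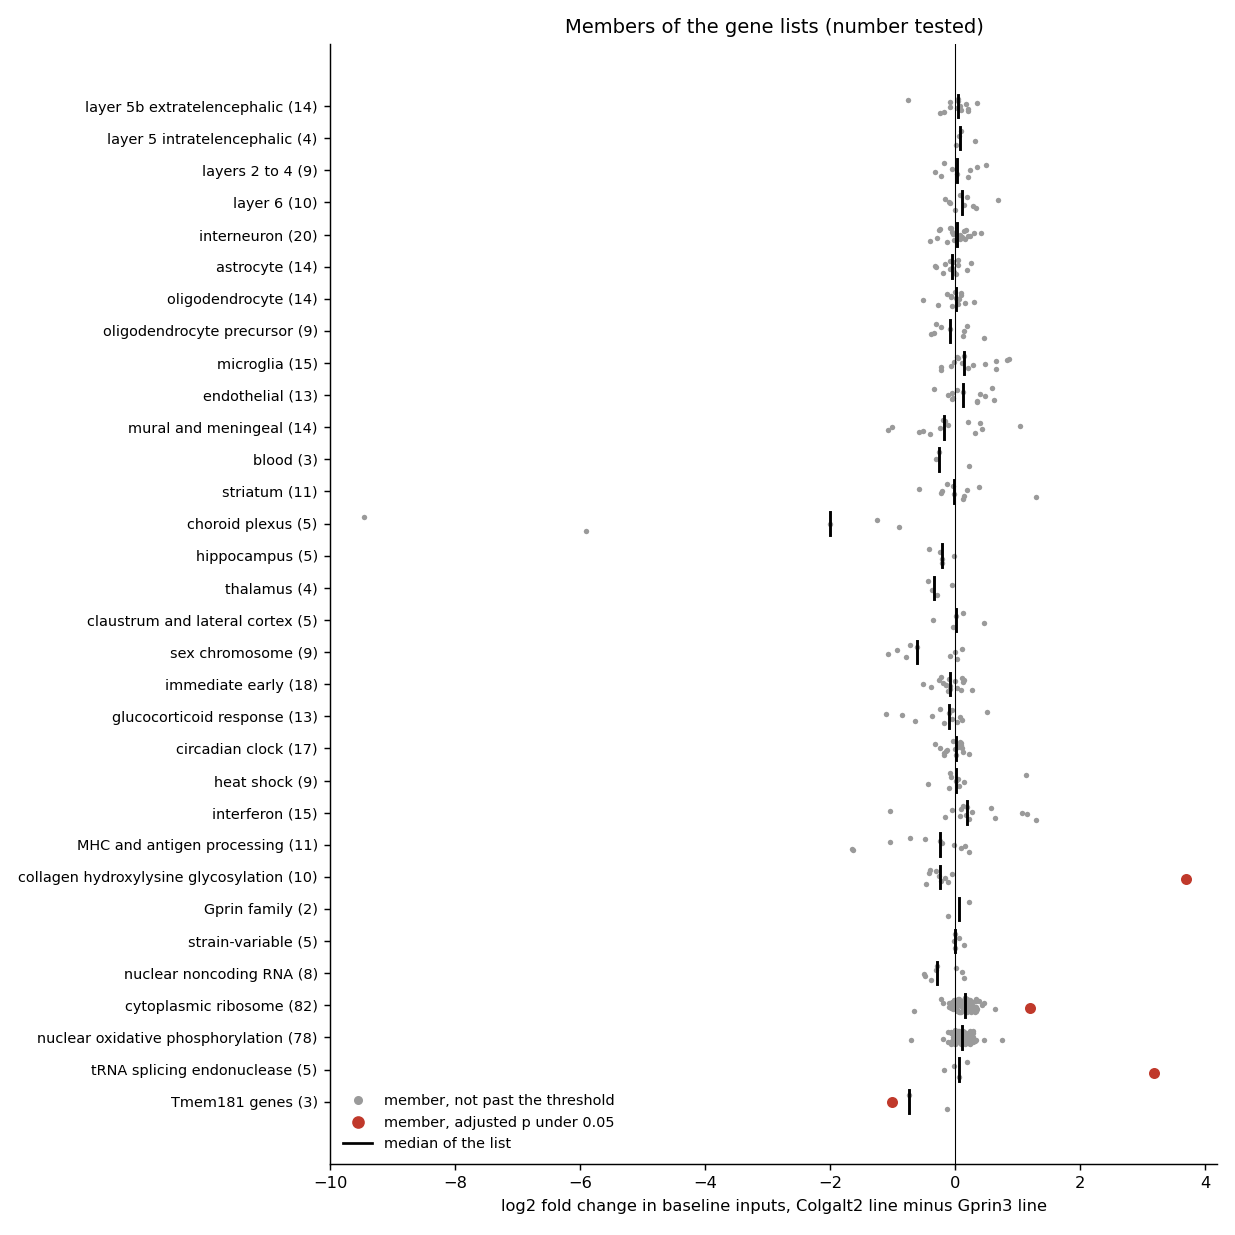
Log2 fold change in baseline inputs (Colgalt2 line minus Gprin3 line) of each tested member of 32 gene lists, with black bars at the list medians and red points for members with an adjusted p under 0.05. Apart from the choroid plexus and sex chromosome lists and the 3 Tmem181 genes, the medians lie between -0.33 and 0.19.

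The 5 inputs were not alike in 2 respects that cross the lines. Of 9 choroid plexus genes 5 were tested and 0 were called by edgeR or DESeq2, beside 0.0469% of all genes by edgeR. The 9 genes summed to 1439 CPM in Gprin3-line input 2 and to between 4.97 and 6.81 CPM in the other 4 inputs. Ttr, the transthyretin gene of choroid plexus epithelium, was at 1386 CPM in that library and at 0.331 to 0.871 CPM in the others, and its log2 fold change of -9.46 did not pass the test and had an interval from -27.34 to 8.42. Clic6 and Kl, further genes of that epithelium, were at 14.4 and 13.5 CPM there and at no more than 0.673 and 1.87 CPM in the other inputs. Without Gprin3-line input 2, edgeR called 8 genes, the 7 above and Ide.

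Sex-linked genes differed as well. Ddx3y, a Y-linked RNA helicase gene, was at 47, 40.7 and 18.7 CPM in Gprin3-line inputs, at 0 counts in Colgalt2-line input 1 (below 0.124 CPM by the limit of 3 counts) and at 42.7 CPM in Colgalt2-line input 2. Xist, the noncoding RNA of the inactive X chromosome, was at 4.22, 2.68 and 14.2 CPM in Gprin3-line and at 5.85 and 2.65 CPM in Colgalt2-line inputs. Thus 4 of the 5 inputs held both RNAs, whereas the littermate inputs held either Xist at 7.71 to 10.4 CPM without a Ddx3y count or Ddx3y at 71.2 to 72.8 CPM with Xist at no more than 0.0773 CPM. Of 9 tested sex-linked genes 0 were called by edgeR or DESeq2, and 0 had an unadjusted p under 0.05. The edgeR shares over all genes tested were 0.0469% and 2.93%. Without Colgalt2-line input 2, which leaves input 1 alone in its line and assumed to vary like the others, edgeR called 5 genes, 4 of the 7 and the Y-linked gene Uty. The part of sex or choroid plexus RNA in the calls of the other genes was not tested beyond leaving out these libraries. Without Colgalt2-line input 1, which leaves input 2 alone in its line, log2 fold changes were 3.22 (Tsen15), 3.65 (Colgalt2), 1.37 (Rpl30) and -1.12 (Map3k4). Those of Tmem181b-ps, Mir6236 and Lars2 were -1.10, -0.72 and -0.90. Gprin3-line input 2 was left out as well in a check added after the data were seen. In the same order the values of the 7 genes were then 3.17, 3.60, 1.37, -1.14, -1.09, -0.66 and -0.79.

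**Figure D5:**
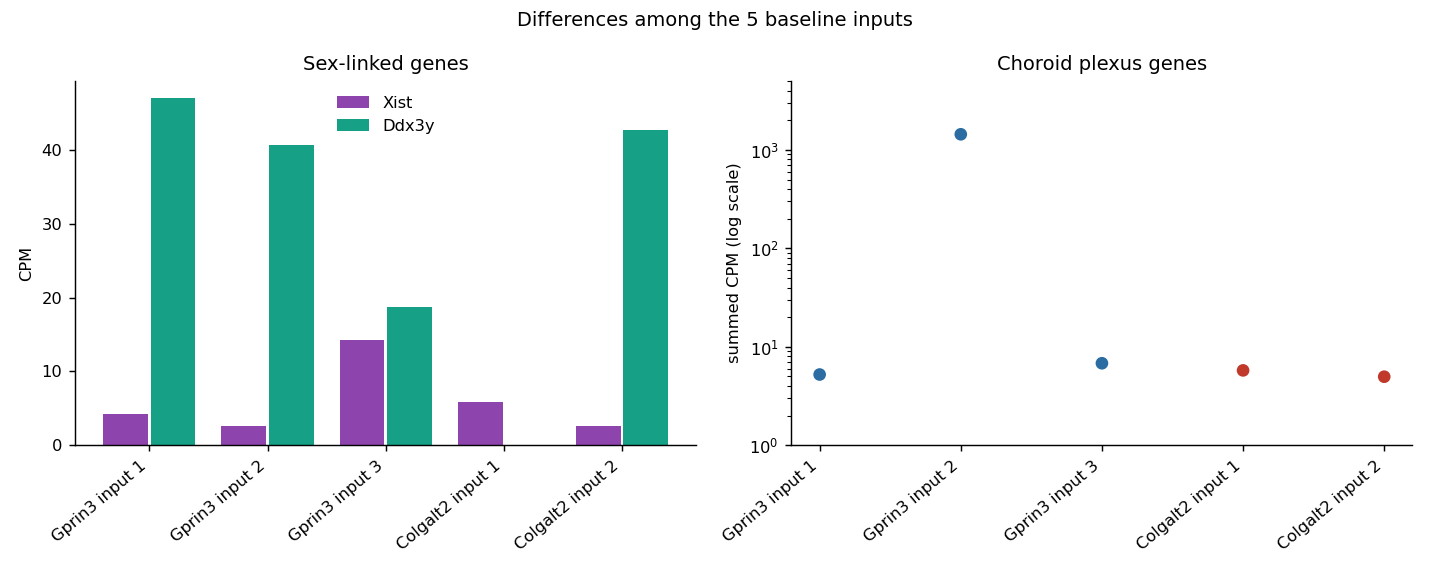
Left, CPM of Xist and Ddx3y in each of the 5 baseline inputs, as bars from 0; right, summed CPM of the choroid plexus list on a log axis, blue for the Gprin3 line and red for the Colgalt2 line. Colgalt2-line input 1 has no Ddx3y bar, and Gprin3-line input 2 is at 1439 CPM of choroid plexus genes where the others lie between 4.97 and 6.81.

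The precision of the comparison bounds what it can show. Among the 10868 tested genes with a mean of at least 5 CPM, the median SE of the log2 fold change was 0.168, and 98.2% (10673 genes) had a 95% interval inside a 2-fold change in either direction. Over all 14916 genes tested that share was 77.1%. A change of under 2-fold in single genes, or any change in genes below 5 CPM, was often not detectable with 3 against 2 libraries. Tsen15 and Colgalt2 passed the test in the main comparison and in all 15 alternative analyses, with log2 fold changes of 3.14 to 3.28 and 3.60 to 3.84. Rpl30 passed in 14 of the 15, Mir6236 in 13, Tmem181b-ps in 12, Map3k4 in 11 and Lars2 in 10. In the joint fit of all 9 baseline libraries, where IPs share in the estimate of spread, Tsen15 and Colgalt2 were the 2 genes called.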

How the data were processed

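Sequencing counts of 19 of 32 libraries were used, the 5 baseline inputs and 14 libraries set beside them, and the 13 libraries of SOD1*G93A carriers and the authors' comparison tables were not used here. Per the labels' protocols, 15 ng of total RNA was amplified by the NuGEN Ovation V2 method before TruSeq v2 library preparation. The deposited tables hold raw counts per gene for 24100 features, made by the authors with Subread and featureCounts on mm10 per the submitters' processing notes, which also name DESeq2 1.26.0. Aligner settings and strandedness of counting are not given in the sources used here, so overlapping and antisense genes cannot be separated. Left out were 9 features that had no symbol and held up to 0.0201% of a library's counts.

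The sample titles gave the groups. Each comparison was fitted on its own groups with edgeR 4.0.16 (limma 3.58.1, R 4.3.3): filterByExpr, TMM, a robust quasi-likelihood fit without a replicate block, an F test, and Benjamini-Hochberg adjustment over all genes tested, with a threshold of 0.05. CPM are counts over the library total, with no normalization factor. The scripts were tested on simulated data. A few genes are not reported here. Positions of 24045 features come from RefSeq on GRCm38.p6 (mm10), and lengths and GC content from GENCODE transcripts. Intervals are 95% and cover the spread between libraries.

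The genes, the 30 lists and the alternatives were chosen with earlier results of these data known, and 2 lists were added later. Named genes are up to 12 per direction past the threshold whose higher group averaged 5 CPM or more, with no overlap between libraries and no predicted symbol, or where under 6 pass the 6 with the smallest p as well, called members of lists, genes within 500 kb of a driver, genes called in 3 comparisons, and a fixed set of driver, marker and strain genes. Between the lines, deviations of inputs with the same replicate number correlated at -0.005 and 0.021. These values are not independent, because the deviations of the 2 Colgalt2-line inputs mirror each other. Whether an IP and an input of the same number shared a homogenate was not examined. Ttr was at 1386 CPM in Gprin3-line input 2 and 138 CPM in baseline IP 2 of that line, and at 0.82 and 2.68 CPM in input 1 and IP 1. In the Colgalt2 line Ddx3y had 0 counts in input 1 and 543 counts in baseline IP 1. It was at 42.7 and 28.2 CPM in input 2 and IP 2 of that line. No label gives a batch. Alternatives were DESeq2 1.42.0 (size factors and Wald test), filters, thinning to the smallest library, length and GC trends, a replicate block, a joint fit of 9 libraries and leaving out each library.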

Additional observations from a re-analysis of the deposited data

Results flagged for a closer look

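The levels of 43 named genes were examined over the 5 littermate inputs, the one group used here with 4 or more libraries. At 5 genes 1 library was flagged as apart from the others, at some of them by a small difference in CPM. Chance flags about 1 in 20 groups. Rpl30 reached 60.9 CPM in 1 littermate input, where the others lay between 20.7 and 30 CPM. Mir6236 fell to 2144 CPM in 1 library, where the median was 4620 CPM. Ngfr, a neurotrophin receptor gene, reached 3.65 CPM in 1 library (median 1.15 CPM). Slc17a7 was at 361 CPM in 1 library against a median of 313 CPM, and Fezf2 at 55 CPM against a median of 42 CPM.

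The line difference differed between IPs and inputs at 3 of 18 genes examined for it, by edgeR's interaction test adjusted over all genes, which called 1307 of 15045 genes (8.69%). For Gprin3 it was lower in IPs by -1.65 (adjusted p = 0.0104) and for Nap1l5 by -1.52 (adjusted p = 0.00448), while for Tmem181b-ps it was higher in IPs by 1.39 (adjusted p = 0.0319).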

How the results depend on the processing

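Of the 7 genes called in baseline inputs, 2 were called in a joint fit of all 9 baseline libraries, and 11 genes were called with no filter on low counts. Without Gprin3-line input 2 and Colgalt2-line input 1, 17 were called. Leaving out each library gave 5 to 8 genes. With replicate numbers as a block, 7 genes were called in baseline inputs, 5 of them the same, with Clic6 and Mir692-2 in place of Map3k4 and Lars2. Numbers of called list members moved from 2 to 1 in the joint fit and to 7 without the 2 libraries, and runs of called neighbours from 1 to 2 without a filter, where Agpat4 joined Map3k4. The log2 fold change of Rpl10a ran from -0.26, a reversal, without Colgalt2-line input 2 to 0.54 without input 1.

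In the other comparisons DESeq2 called 1558 genes in baseline IPs and 1310 against littermate inputs, and no filter gave 1557 in baseline IPs. Leaving out each library gave 135 to 1711 genes in baseline IPs, 353 to 2863 in littermate IPs and 152 to 916 against littermate inputs. The interaction test called 635 genes with the block, 2142 with no filter and 246 to 2516 with each library left out. The cause of these shifts was not tested, beyond the smaller number of libraries where some were left out.

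Over the alternatives the adjusted p of Map3k4 ran from 1.89e-06 to 0.436, and those of Tmem181b-ps, Mir6236 and Lars2 from 6.71e-06, 1.36e-09 and 3.54e-08 to 1. With 3 against 2 libraries, genes under 5 CPM and changes under 2-fold were poorly resolved.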
